A study of Mus musculus with 8 samples.

Results

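Laminins and integrins are the matrix proteins and the cell-surface receptors that join an epithelium to its basement membrane. A laminin is a secreted trimer of an alpha, a beta and a gamma chain that polymerizes next to type IV collagen, and an integrin is a receptor of an alpha and a beta subunit that binds matrix or other cells outside and talin, kindlin and actin linkers inside. In liver, laminins lie around bile ducts, vessels and nerves, the hepatocyte plates have little of them, and their deposition is known to increase with scarring and bile duct growth. The genes described here are the protein-coding genes whose symbols name a laminin chain (Lama, Lamb or Lamc and a digit) or an integrin subunit (Itga or Itgb and a digit or letter). The rule found 37 of the 24451 genes in the expression table, 11 laminin chains and 26 integrin subunits, the latter divided into 18 alpha and 8 beta subunits. The rule uses symbols only, but it was set with earlier results of these data known.

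Bulk RNA was sequenced from the left liver lobe of 8 mice, 4 of them Brap LKO and 4 Brap F/F, with 1 library per mouse. All were C57BL/6 mice by the labels, C57BL/6J and male by the study's methods, 18 wk old and fasted for 6 h. Both groups carried floxed alleles of Brap, which encodes a ubiquitin ligase named for its binding of BRCA1. The Brap LKO mice also carried Albumin-Cre, whose promoter is active in hepatocytes, so Cre is not expected to act in stellate cells, endothelium or leukocytes. The Brap F/F mice, titled wildtype in the labels, had no Cre, and no group with Cre alone was analysed here. Depth ran from 26280884 to 33313914 gene-assigned reads per library. The values are normalized counts, which are the reads on a gene divided by a size factor for each liver. All 10 hepatocyte markers examined were detected, with Alb between 1438250 and 3058030 normalized counts over the 8 livers. Brap itself was at 3988 ± 242 normalized counts in Brap LKO and 4186 ± 179 in Brap F/F livers (mean ± SD, n = 4, as for all values with an SD below). The difference did not pass limma (log2 fold change -0.07, adjusted p = 0.631). That count covers the whole gene, while Cre removes only the floxed part, so it does not check the genotype labels.

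More laminin and integrin genes were higher than lower in Brap LKO livers, and 3 of them passed the test: Itga8, Itgax and Itgb4. The test was limma on log2(normalized count + 1) with Benjamini-Hochberg adjustment over all 15352 genes whose mean normalized count was at least 5. Of the 37 members, 35 reached that mean, and Itgad and Itgb6 did not. The 3 genes that rose compare with 102 of all genes tested, which is 0.664%. No member fell by limma, edgeR or DESeq2 at an adjusted p under 0.05, against 16 of all genes by limma (0.104%), and 1 member, Itga7, was lower at an unadjusted p under 0.05. At that unadjusted threshold 13 members were higher, against 9.23% of all genes, while 6.59% of all genes were lower. Every Brap LKO liver was above every Brap F/F liver for 9 tested members (5.48% of all genes) and below for 1 (4.39% of all genes), and the groups overlapped for the remaining 25. A log2 fold change above 0 was found for 28 of the 35 members and for 48% of all genes. The median log2 fold change was 0.45 over the members and -0.01 over all genes.

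**Figure D1:**
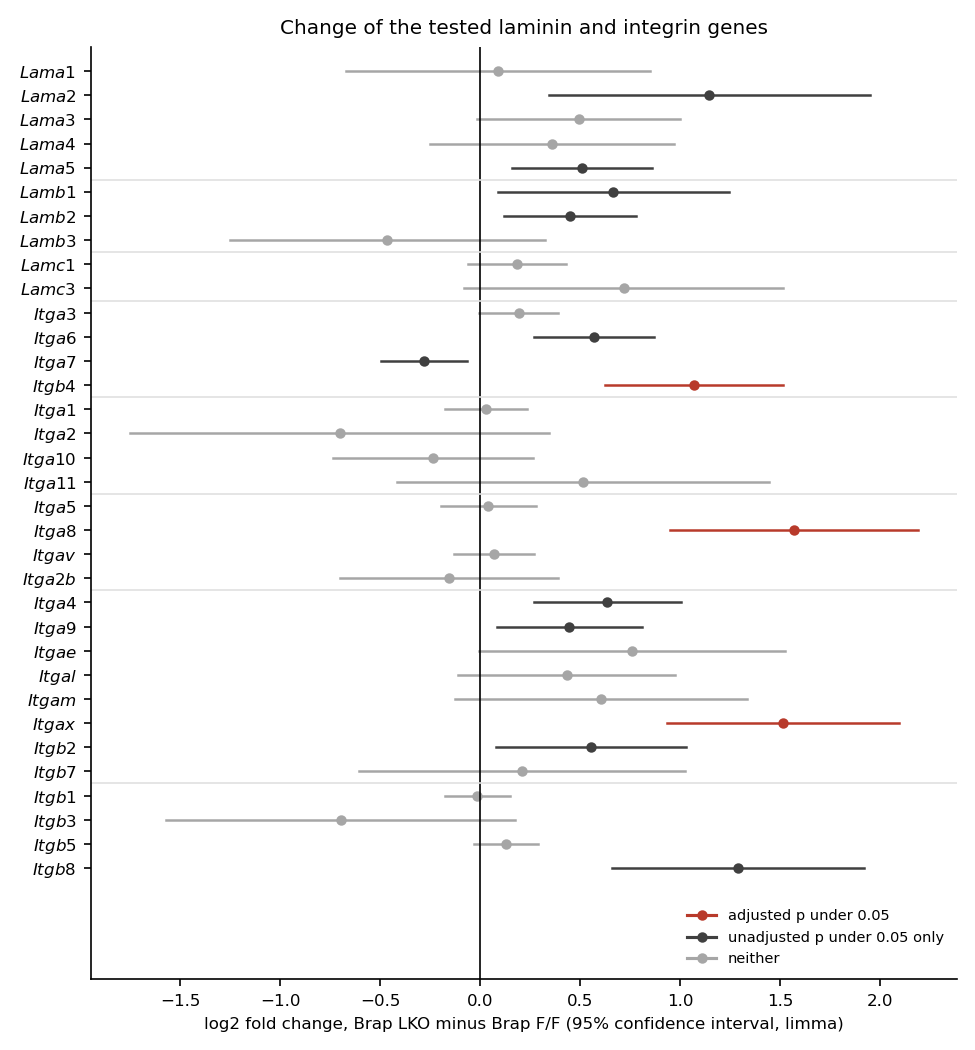
Log2 fold change (x axis, Brap LKO minus Brap F/F, on log2(normalized count + 1)) of each tested member shown, with the 95% confidence interval from limma as a line and the role groups separated by grey rules. Red marks the 3 genes past the adjusted threshold (Itgb4, Itga8 and Itgax), dark grey others with an unadjusted p under 0.05, and light grey the rest. Most points lie to the right of 0.

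DESeq2 run on the reads recovered from the table, the test nearest to that of the study, called 8 members higher, against 454 of all genes (2.96%), and 0 members lower, against 175 of all genes (1.14%). The members called higher included Itga8, Itgax, Itgb4, Itgb8, Itga4, Itga6 and Lama2. edgeR's quasi-likelihood test called Itga8 and Itgax. The calls of limma were close to the threshold, and no liver could be left out with all 3 of them kept.

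The chains of laminin differed widely in abundance. Per kb of exon, a scale on which genes of different length can be compared, Lamc1 had the highest level of the 11 chains, 93.2 ± 4.19 normalized counts per kb in Brap LKO and 82.7 ± 12.9 in Brap F/F livers. Lamc1 is the gamma chain of most laminin trimers. It made up 74.8% ± 10.8 of the gamma chain counts per kb in Brap LKO and 82.7% ± 2.43 in Brap F/F livers, and these ranges overlapped. The beta chains Lamb1, Lamb2 and Lamb3 had means from 24.1 ± 8.14 to 49.4 ± 21.4 per kb in Brap F/F livers, and the values of these livers overlapped between the chains. Among alpha chains Lama3 was the most abundant, at 33.3 ± 3.31 per kb in Brap LKO and 24.7 ± 8.93 in Brap F/F livers, and Lama2 the least, at 7.85 ± 2.15 and 3.68 ± 1.55.

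**Figure D2:**
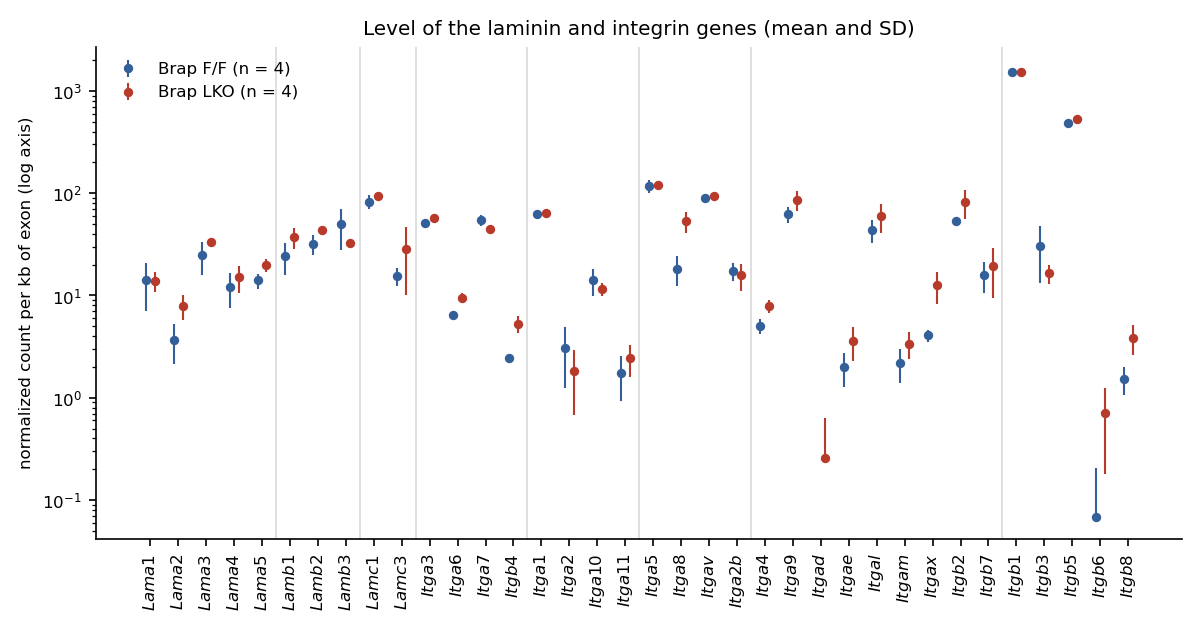
Level of each member shown in normalized counts per kb of exon (y axis, log scale), as the mean (point) and SD (line) of 4 Brap F/F (blue) and 4 Brap LKO livers (red), with role groups separated by grey lines. Only the upper SD is drawn where the SD reaches the mean, and Itgad in Brap F/F livers, at 0, has no point. Itgb1 and Itgb5 stand above all other members, and Itgad and Itgb6 below them.

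No laminin chain passed the limma test, while 10 of the 11 had a log2 fold change above 0 and 5 had an unadjusted p under 0.05. DESeq2 called 2 of them, Lama2 included, and edgeR called 0. Over all genes tested, 48% had a log2 fold change above 0 and 9.23% were higher at an unadjusted p under 0.05. DESeq2 called 2.96% of all genes higher. Lama3 and Lamb3 are chains known from the basement membranes of stratified and glandular epithelia, and the groups overlapped for both. Lama3 was at 363, 318, 403 and 345 normalized counts across Brap LKO livers and at 387, 205, 173 and 295 across Brap F/F livers (limma log2 fold change 0.49 ± 0.23 with adjusted p = 0.329). Lamb3 stood at 184, 227, 223 and 220.5 in Brap LKO replicates 1 to 4 and at 399, 346, 439 and 123 in the Brap F/F replicates. Replicates 1 to 3 of the Brap F/F group were above all Brap LKO livers, while Brap F/F replicate 4 was below them all. The log2 fold change of Lamb3 was -0.46 ± 0.35 (limma adjusted p = 0.540), and without Brap F/F replicate 4 it was -0.88 and passed the test (limma adjusted p = 0.0173). Its coefficient of variation was 9.29% in Brap LKO and 43.3% in Brap F/F livers.

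Lama5, an alpha chain of many epithelial and vascular basement membranes, was at 233, 189, 217 and 268 normalized counts across Brap LKO livers and at 121, 166, 181 and 172 across Brap F/F livers. The groups did not overlap, although the lowest Brap LKO and the highest Brap F/F liver were close (limma log2 fold change 0.51 ± 0.16 with adjusted p = 0.173). Lama2, the alpha chain best known from muscle and peripheral nerve, was at 143, 75.6, 147 and 148 across Brap LKO and at 27.4, 80.3, 79.9 and 53.0 across Brap F/F livers. Brap LKO replicate 2 fell within the Brap F/F range and the other 3 were above it (limma log2 fold change 1.15 ± 0.36 with adjusted p = 0.180, against 0.0382 by DESeq2). The remaining alpha chains had differences within their spread: Lama1 differed by a log2 fold change of 0.09 and Lama4 of 0.36 (limma adjusted p = 0.917 and 0.540).

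Lamb1 and Lamb2 are the beta chains that pair with Lamc1 in the common trimers. Lamb1 was at 415, 280.3, 467 and 315 normalized counts across Brap LKO livers and at 148, 300.0, 313 and 193 across Brap F/F livers, with Brap F/F replicates 2 and 3 inside the Brap LKO range (limma log2 fold change 0.67 ± 0.26 with adjusted p = 0.264). Lamb2 was at 271, 237, 271 and 274 across Brap LKO and at 154, 188, 255 and 184 across Brap F/F livers (limma log2 fold change 0.45 ± 0.15 with adjusted p = 0.198). Brap F/F replicate 3 reached the Brap LKO range and the other 3 stayed below it. Their partner Lamc1 was at 823, 759, 748 and 755 across Brap LKO and at 581, 765, 786 and 603 across Brap F/F livers, with a log2 fold change of 0.18 ± 0.11 (limma adjusted p = 0.440) and overlapping groups. Lamc3 differed by 0.72 on the log2 scale (limma adjusted p = 0.361), with 1 liver, Brap LKO replicate 4, at 340.1 normalized counts against 68.4 to 136 in the other 7.

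Itga3, Itga6, Itga7 and Itgb4 were grouped as subunits of receptors that bind laminin. For each of these 4 the Brap LKO and Brap F/F livers did not overlap, with Brap LKO higher for 3 and lower for 1. Over all genes tested these shares were 5.48% and 4.39%. Itgb1, the beta partner of Itga3 and Itga7, was placed in another group, and its livers overlapped (log2 fold change -0.01). Itgb4 rose and was the only 1 of the 4 to pass limma. Itga6 and Itga3 were higher and Itga7 was lower without passing it. Itgb4 pairs with Itga6 in the hemidesmosomal laminin receptor of epithelia, which in liver is a feature of bile duct cells. Itgb4 (ENSMUSG00000020758, chr11:115974709-116008412 of mm10, plus strand) was at 41.9, 32.3, 30.4 and 43.7 normalized counts in Brap LKO replicates 1 to 4 and at 18.2, 18.3, 14.7 and 16.7 in the Brap F/F replicates. Its Brap LKO livers formed a higher pair, replicates 1 and 4, and a lower pair, and the lower pair was still well above every Brap F/F liver. The mean was 37.1 ± 6.71 in Brap LKO and 17.0 ± 1.69 in Brap F/F livers, and the log2 fold change by limma was 1.07 ± 0.20 (95% interval 0.62 to 1.51, adjusted p = 0.0494). The call was lost without any 1 of the 8 livers (adjusted p = 0.0585 to 0.177 by limma) and by edgeR (adjusted p = 0.0522), and it held in 4 of the 18 alternatives tried. Of the exon bases of Itgb4, 7.66% also belong to B230344G16Rik on the opposite strand, and since the use of strand in counting is not given in the sources used here, those reads cannot be told apart.

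Itga6 stood at 82.9, 79.0, 84.0 and 98.8 normalized counts across Brap LKO livers and at 63.8, 57.0, 57.8 and 52.0 across Brap F/F livers. The log2 fold change was 0.57 ± 0.13 (adjusted p = 0.0941 by limma and 0.0346 by DESeq2). Itga3, a laminin receptor subunit of epithelia that pairs with Itgb1 and, over all 8 livers, the most abundant of these 4 per kb (in Brap F/F livers alone the mean of Itga7 was higher), was at 344, 316, 322 and 335 across Brap LKO and at 254, 310.2, 295 and 294 across Brap F/F livers. The lowest Brap LKO liver and the highest Brap F/F liver were close (limma log2 fold change 0.19 ± 0.0874 with adjusted p = 0.326). Itga7, a laminin receptor subunit that also pairs with Itgb1 and is best known from muscle, ran the other way, at 355, 365, 351 and 375 across Brap LKO and at 523, 399, 419 and 424 across Brap F/F livers. The Brap LKO livers lay close together, with a coefficient of variation of 3.01%, and below all Brap F/F livers, the highest of which was replicate 1. The log2 fold change of Itga7 was -0.28 ± 0.0957 (limma adjusted p = 0.217). As shares of all alpha subunit counts per kb, Itga6 was 1.48% ± 0.165 in Brap LKO and 1.16% ± 0.107 in Brap F/F livers, and Itga7 was 6.94% ± 0.511 and 9.85% ± 1.13, both without overlap.

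Among alpha subunits of receptors that bind the RGD motif (arginine, glycine, aspartate) of matrix proteins, Itga8 rose and the groups of the other 3 overlapped. Itga8 pairs with Itgb1, binds nephronectin and fibronectin, and is expressed by hepatic stellate cells and smooth muscle. Itga8 (ENSMUSG00000026768, chr2:12106632-12301922, minus strand) was at 401, 262, 438 and 467 normalized counts in Brap LKO replicates 1 to 4 and at 74.1, 163, 171 and 131 in the Brap F/F replicates. All Brap LKO livers were above all Brap F/F livers, with Brap LKO replicate 2 the lowest of its group and Brap F/F replicate 1 the lowest of all. The mean was 392 ± 90.5 against 135 ± 44.0, and the log2 fold change was 1.57 ± 0.28 (95% interval 0.95 to 2.19, limma adjusted p = 0.0435). This was the largest log2 fold change among the 35 tested members. Itga8 went from 3.33% ± 1.15 of the alpha subunit counts per kb in Brap F/F to 8.24% ± 1.93 in Brap LKO livers. The call was lost without 6 of the 8 livers, left out 1 at a time, and was kept without Brap LKO replicate 2 or without replicate 1 of the Brap F/F group, with adjusted p = 0.0497 to 0.150 by limma over the 8. The antisense gene E030013I19Rik covers 5.05% of its exon bases.

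Itga5, the fibronectin receptor subunit and the most abundant alpha subunit per kb, was at 560.2, 597, 588 and 605 normalized counts across Brap LKO livers and at 613, 558, 468 and 663 across Brap F/F livers. The groups overlapped, with a log2 fold change of 0.04 ± 0.11 (95% interval -0.20 to 0.28, limma adjusted p = 0.873). Itgav, the alpha subunit of the receptors that release latent TGF-beta, differed by a log2 fold change of 0.07 (95% interval -0.13 to 0.27), and Itga2b, the platelet subunit, by one of -0.16 (-0.70 to 0.39).

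The alpha subunits that bind collagen gave 0 calls by limma, edgeR or DESeq2 and 0 at an unadjusted p under 0.05, with a median log2 fold change of -0.10 over 4 genes and overlapping groups for each. Itga1, which binds type IV collagen and was the most abundant of them, was at 1317, 1197, 1218 and 1024 normalized counts across Brap LKO livers and at 1101, 1208, 1265 and 1075 across Brap F/F livers. Its log2 fold change was 0.03 ± 0.0913 (95% interval -0.18 to 0.24, limma adjusted p = 0.893), and the sign turned in some alternatives. Itga2, Itga10 and Itga11 had log2 fold changes of -0.70, -0.23 and 0.52 (limma adjusted p = 0.489, 0.630 and 0.566). Gm42957 shares 33.5% of the exon bases of Itga10 on the same strand.

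Integrin subunits of leukocytes were grouped with Itga4 and Itga9, which are also found on other cells. All 8 tested genes of this group had log2 fold changes above 0, from 0.21 to 1.52 with a median of 0.58, 4 had an unadjusted p under 0.05, and 1, Itgax, passed the test. Over all genes tested, 48% were above 0, 9.23% were higher at an unadjusted p under 0.05 and 0.664% rose by limma. Itgax encodes CD11c, which pairs with Itgb2 on dendritic cells and on some macrophages. Itgax (ENSMUSG00000030789, chr7:128129547-128150657, plus strand) was at 84.7, 46.7, 39.5 and 69.7 normalized counts in Brap LKO replicates 1 to 4 and at 21.7, 21.4, 15.8 and 19.6 in the Brap F/F replicates. The Brap F/F livers lay close together and every Brap LKO liver was above them, with replicates 1 and 4 highest. The mean was 60.1 ± 20.8 against 19.6 ± 2.71, and the log2 fold change was 1.52 ± 0.26 (95% interval 0.93 to 2.10, limma adjusted p = 0.0402). The call was lost without 7 of the 8 livers, left out 1 at a time, and kept without Brap F/F replicate 4, with adjusted p = 0.0489 to 0.120 by limma over the 8, and it was lost with the animal series as a covariate (adjusted p = 0.0755).

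Itgb2, the shared beta subunit of CD11c and the other CD11 integrins, was at 344, 251, 153 and 248 normalized counts across Brap LKO livers and at 176, 158, 150.3 and 168 across Brap F/F livers. Brap LKO replicate 3 was within the Brap F/F range and the other 3 were above it (limma log2 fold change 0.55 ± 0.21 with adjusted p = 0.258). Its coefficient of variation was 31.4% in Brap LKO and 6.83% in Brap F/F livers. Itga4, which with Itgb1 or Itgb7 binds VCAM-1 and fibronectin, was at 129, 109.6, 91.1 and 108 across Brap LKO and at 86.7, 67.1, 57.8 and 69.7 across Brap F/F livers without overlap (limma log2 fold change 0.64 ± 0.16 with adjusted p = 0.111, against 0.0239 by DESeq2). Itga9, which pairs with Itgb1 and binds tenascin and osteopontin, was at 864, 609, 528 and 626 across Brap LKO and at 419.6, 454, 599 and 442 across Brap F/F livers (limma log2 fold change 0.45 ± 0.16 with adjusted p = 0.239). Its groups overlapped through Brap F/F replicate 3. Brap LKO replicate 1 had the highest value of the 8 livers for Itgb2, Itga4, Itga9 and Itgax.

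The other leukocyte subunits had log2 fold changes of 0.43 for Itgal, a subunit of the ICAM receptor of leukocytes, 0.61 for Itgam of myeloid cells, 0.76 for Itgae of intraepithelial T cells and 0.21 for its partner Itgb7, with limma adjusted p = 0.411, 0.395, 0.320 and 0.804. Of the exon bases of Itgam, 68.7% are also annotated to Gm49368 on the same strand, so its count is uncertain. Itgad, below the minimum for testing, had 4, 0, 1 and 0 reads in the Brap LKO livers and 0 in every Brap F/F liver, a count that allows up to 3 reads.

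**Figure D3:**
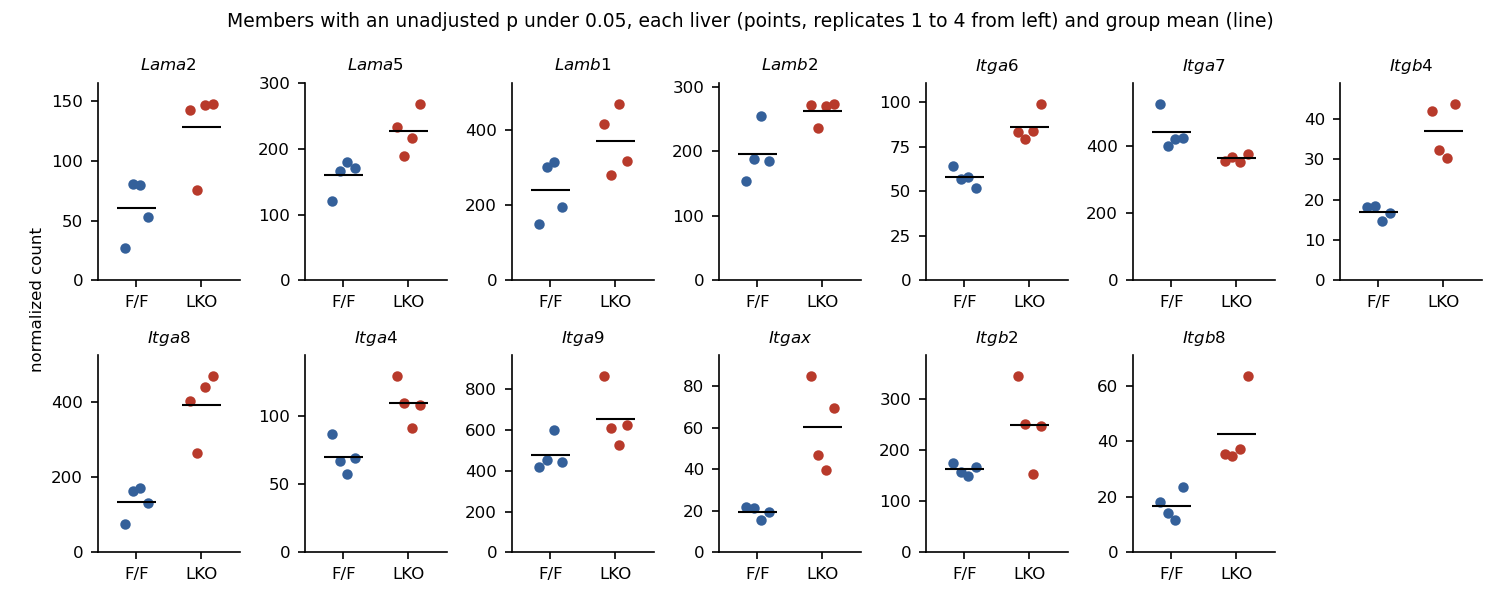
Normalized counts (y axis, from 0) of members with an unadjusted p under 0.05, as 1 point per liver with replicates 1 to 4 from left to right, in Brap F/F (blue) and Brap LKO livers (red), and the group mean as a line. The groups are apart for Lama5, Itga6, Itgb4, Itga8, Itga4, Itgax and Itgb8 (Brap LKO higher) and for Itga7 (Brap LKO lower), and Brap LKO replicate 4 stands out for Itgb8.

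Itgb1, the beta subunit shared by most of these receptors, was by far the most abundant member, at 1512 ± 80.9 normalized counts per kb in Brap LKO and 1526 ± 96.2 in Brap F/F livers, and Itgb5 followed at 526 ± 5.20 and 483 ± 42.8. Itgb1 was at 5750.4, 6173, 6199 and 6557 normalized counts across Brap LKO livers and at 5846, 6629.9, 6499 and 5943 across Brap F/F livers. The log2 fold change was -0.01 ± 0.0723 (95% interval -0.18 to 0.15, limma adjusted p = 0.944), with a sign that turned in some alternatives. The whole interval lies below the log2 fold change of its partner Itga8. Itgb1 made up 69.8% ± 2.01 of the beta subunit counts per kb in Brap LKO and 72.3% ± 1.30 in Brap F/F livers. Itgb5 and Itgb3, which pair with Itgav, had log2 fold changes of 0.13 and -0.70 (limma adjusted p = 0.405 and 0.412).

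Itgb8 and Itgb6 also pair with Itgav, in the receptors that activate latent TGF-beta. Itgb8 was at 35.5, 34.8, 37.4 and 63.4 normalized counts across Brap LKO livers and at 18.2, 14.2, 11.6 and 23.5 across Brap F/F livers. The groups did not overlap, and Brap LKO replicate 4 was far above the other 3 (limma log2 fold change 1.29 ± 0.28 with adjusted p = 0.0776, against 0.00615 by DESeq2). Without that liver the log2 fold change was 1.09 (limma adjusted p = 0.173), and without Brap F/F replicate 4 the gene passed the test (limma adjusted p = 0.0489). Itgb6, an epithelial subunit below the minimum for testing, had 3, 6, 2 and 10 reads in Brap LKO replicates 1 to 4 and 0, 0, 0 and 2 in the Brap F/F replicates. The ratio of the summed reads, scaled by the size factors, was 9.52 (95% exact interval 2.33 to 83.8, which covers counting error only).

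Summed over the 18 genes, alpha subunits came to 5382 ± 373 normalized counts in Brap LKO and 4694 ± 69.6 in Brap F/F livers, and each Brap LKO liver was above each Brap F/F liver. The summed beta subunits came to 8525 ± 295 and 8365 ± 555, and the summed laminin chains to 2859 ± 254 and 2319 ± 377, both with overlap. Abundant genes carry such sums, and the largest single part was Lamc1 in the laminin total, Itgb1 in the beta total and Itga1 in the alpha total. The means of Itga1 were 1189 in Brap LKO and 1162 in Brap F/F livers. Those of Itga8 were 392 and 135, those of Itga9 657 and 478, and those of Itga7, which went the other way, 362 and 441.

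Promoter sequences of RefSeq (GRCm38.p6) matched 23 of the 37 members, among them the 2 genes of largest rise. The 250 bases before the annotated start are shown for these, 5′ to 3′ on the strand of the gene, at chr2:12301945-12302194 (minus strand) and chr7:128129300-128129549 (plus strand). Capitals mark a match to an AP-1 motif.
Itga8 promoter: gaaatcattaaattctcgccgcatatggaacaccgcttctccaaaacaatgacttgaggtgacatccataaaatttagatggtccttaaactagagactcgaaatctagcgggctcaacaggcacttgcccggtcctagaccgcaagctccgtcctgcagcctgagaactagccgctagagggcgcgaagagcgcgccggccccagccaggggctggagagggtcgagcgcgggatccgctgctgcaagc
Itgax promoter: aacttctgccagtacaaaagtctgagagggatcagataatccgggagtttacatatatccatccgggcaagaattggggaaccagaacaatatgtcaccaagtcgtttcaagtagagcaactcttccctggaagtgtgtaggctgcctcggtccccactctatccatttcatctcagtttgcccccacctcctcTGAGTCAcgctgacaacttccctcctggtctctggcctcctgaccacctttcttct
The motifs searched on both strands were those of TEAD (GGAATG), the DNA-binding partner of YAP, of AP-1 (TGANTCA), of SP1 (GGGCGG), the TATA box (TATAAA) and PU.1 (GAGGAAGT), a factor of myeloid cells. The letters of these motifs do not contain one another. Itga8 held none of them and Itgax held 1 AP-1 match, at positions -56 to -50 relative to the start. Among the 23 members, TEAD letters were found in 3 (Itga10, Itgb1 and Lamb3) and in 12.6% of 32851 promoters of the same length. AP-1 letters were in 1 member and 6.75% of promoters, SP1 letters in 8 and 32.7%, PU.1 letters in 3 and 2.44%, and the TATA box in 0 and 12.4%. Members were counted by gene, with a match in any promoter entry of that gene, while the percentages are shares of single promoter entries. The member counts and the percentages are therefore not on the same scale. These matches describe letters in a window and are not measured binding sites.

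Laminins share the basement membrane with type IV collagens, nidogens and perlecan. Of 24 other basement membrane genes, 22 were tested, 3 rose and 1 fell, and 12 were higher and 1 lower at an unadjusted p under 0.05, with a median log2 fold change of 0.41. DESeq2 called 10 higher and 1 lower. Over all genes tested, 0.664% rose and 0.104% fell by limma, and 9.23% were higher and 6.59% lower at an unadjusted p under 0.05. DESeq2 called 2.96% of all genes higher and 1.14% lower. All genes of this list that rose by limma were type IV collagen chains. Col4a3, a chain of specialised basement membranes, was at 108 ± 26.4 normalized counts in Brap LKO and 15.6 ± 3.34 in Brap F/F livers (limma log2 fold change 2.71 ± 0.22 with adjusted p = 0.00152). Col4a1 and Col4a2, the chains of the common network, were at 1963 ± 233 and 1831 ± 197 in Brap LKO against 1237 ± 189 and 1011 ± 141 in Brap F/F livers (log2 fold changes 0.67 ± 0.12 and 0.86 ± 0.11, limma adjusted p = 0.0494 and 0.0177). Smoc1, a calcium-binding matrix protein, fell by 0.42 on the log2 scale (limma adjusted p = 0.0481), from 5302 ± 406 to 3967 ± 236. Col18a1, the most abundant gene of this list per kb, differed by a log2 fold change of -0.05.

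Receptors for laminin other than integrins gave 0 calls among 9 tested by limma or edgeR and 1 by DESeq2 (Sdc4, lower). There was 1 gene higher (Bcam) and 1 lower (Sdc4) at an unadjusted p under 0.05 and a median log2 fold change of 0.05. Over all genes tested, 9.23% were higher and 6.59% lower at that threshold, and DESeq2 called 1.14% lower. Sdc4 and Sdc1, both syndecans, had log2 fold changes of -0.36 and -0.06 (limma adjusted p = 0.140 and 0.786).

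Among 22 tested ligands of integrins other than laminin, 1 rose, and 12 were higher and 1 lower at an unadjusted p under 0.05, with a median log2 fold change of 0.56. DESeq2 called 8 higher and 0 lower, against 2.96% and 1.14% of all genes tested. By limma 0.664% of all genes rose, and 9.23% were higher and 6.59% lower at an unadjusted p under 0.05. The gene that rose by limma was Mfge8, whose RGD motif binds Itgav receptors on phagocytes, at 473 ± 70.8 normalized counts in Brap LKO and 249 ± 32.4 in Brap F/F livers (limma log2 fold change 0.92 ± 0.13 with adjusted p = 0.0246). The fibrinogen chains Fga and Fgb of hepatocytes had log2 fold changes of -0.19 and -0.18.

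Of the 29 partners of integrins inside the cell, all tested, 2 rose and 0 fell by limma, 6 were higher and 1 lower at an unadjusted p under 0.05, and the median log2 fold change was 0.03. Over all genes tested, 0.664% rose and 0.104% fell by limma, and 9.23% were higher and 6.59% lower at an unadjusted p under 0.05. Src, a tyrosine kinase of focal adhesions, was at 135 ± 17.6 against 52.8 ± 10.2 (limma log2 fold change 1.35 ± 0.17 with adjusted p = 0.0155). Flna, an actin crosslinker that binds integrin beta tails, was at 1208 ± 104 against 771 ± 108 (limma log2 fold change 0.65 ± 0.11 with adjusted p = 0.0349). Tns1 and Actn4, which link integrins to actin, had log2 fold changes of -0.34 and -0.07.

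Since the tissue was whole liver, more cells of a type and more RNA per cell cannot be told apart, and several members belong to cells other than hepatocytes. Markers of some of those cell types were mostly higher in Brap LKO livers, while other lists differed little between the groups. Their part in these results was not tested. For all marker lists below, the shares over all genes tested were 48% above 0 and 0.664% higher by limma. At an unadjusted p under 0.05, 9.23% were higher and 6.59% lower, and DESeq2 called 2.96% higher. Cholangiocyte markers had a log2 fold change above 0 in 11 of 11 tested genes, 8 at an unadjusted p under 0.05 and 2, Cftr and Cldn4, past the threshold (log2 fold changes 2.91 and 2.70). Their sum ranged from 1997 to 3912 in Brap LKO and from 1162 to 2198 normalized counts in Brap F/F livers, and the highest was Brap LKO replicate 4, the liver that was highest for Itgb4, Itga6 and Itgb8. Brap LKO replicate 3, at 1997, was below Brap F/F replicate 4, at 2198, on this sum, but above that liver for Itgb4, Itga6 and Itgb8. Brap LKO replicate 4 held the highest value of 11 of the 35 tested members, while Itga3 was highest in Brap LKO replicate 1. The most abundant of the cholangiocyte markers per kb, Spp1, had a log2 fold change of 0.95, with overlapping groups.

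Stellate cell and fibroblast markers had 12 of 13 tested genes above 0, 8 at an unadjusted p under 0.05 and 1, Pdgfrb, past the threshold (log2 fold change 0.91, limma adjusted p = 0.0494). Their sum ranged from 8139 to 12857 in Brap LKO and from 5290.4 to 9115 in Brap F/F livers. Brap LKO replicate 2 and Brap F/F replicate 1 were the lowest of their groups on this sum, as they were for Itga8, Lama2 and Lamb1. Between the groups the order was not always the same. Brap LKO replicate 2 was below Brap F/F replicates 2 and 3 (8544 and 9115) on this sum, and also for Lama2 and Lamb1, but above them for Itga8. Dcn, a matrix proteoglycan, and Reln, a marker of stellate cells, had log2 fold changes of 0.37 and 0.37.

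Markers of monocytes and monocyte-derived macrophages had 7 of 7 tested genes above 0, and 2 rose, Cx3cr1 and Gpnmb (log2 fold changes 2.75 and 2.20, limma adjusted p = 0.0155 and 0.0480). Their sum was 1496 to 2253 in Brap LKO and 938 to 1542 in Brap F/F livers, highest in Brap LKO replicate 1 and then replicate 4, the order seen for Itgax. Brap LKO replicate 3, at 1496, was below Brap F/F replicate 4, at 1542, on this sum, but above that liver for Itgax. The most abundant of them per kb, Lyz2 and Cd9, had log2 fold changes of 0.72 and 0.40. Dendritic cell markers had 4 of 5 tested genes above 0 and 0 past the threshold by limma, edgeR or DESeq2 (3 at an unadjusted p under 0.05), with a sum of 949 to 1467 against 599 to 1059, and Cd209a below the minimum. The sum of 4 B cell markers was 53.6 to 95.6 in Brap LKO and 28.5 to 42.0 in Brap F/F livers without overlap, although no single gene passed limma (2 at an unadjusted p under 0.05, and 1, Ms4a1, by DESeq2). T and NK cell markers had a sum of 153 to 251 against 99.7 to 177, and those of Kupffer cells, the resident macrophages, one of 7810.4 to 13857 against 7979.7 to 11340, both with overlap and 0 genes past the threshold by limma, edgeR or DESeq2 (1 gene of each list at an unadjusted p under 0.05).

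Sinusoidal endothelial markers had 10 of 10 genes above 0 with a median log2 fold change of 0.17 and 0 past the threshold by limma, edgeR or DESeq2, also 0 at an unadjusted p under 0.05. Among mesothelial markers Wt1 rose (log2 fold change 2.43, limma adjusted p = 0.0177), and the median of the 4 genes was -0.13. Markers of neutrophils (2 tested of 6, with Ly6g and Mpo at 3 reads or fewer in every liver), platelets (2 of 5, with Gp9 and Gp6 at 3 or fewer) and smooth muscle (3 of 5) gave 0 genes past the threshold by limma, edgeR or DESeq2 and 0 at an unadjusted p under 0.05. Hepatocyte markers ran the other way, with 9 of 10 below 0, a median log2 fold change of -0.38, 0 past the threshold by limma, edgeR or DESeq2 and 1 lower at an unadjusted p under 0.05.

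**Figure D4:**
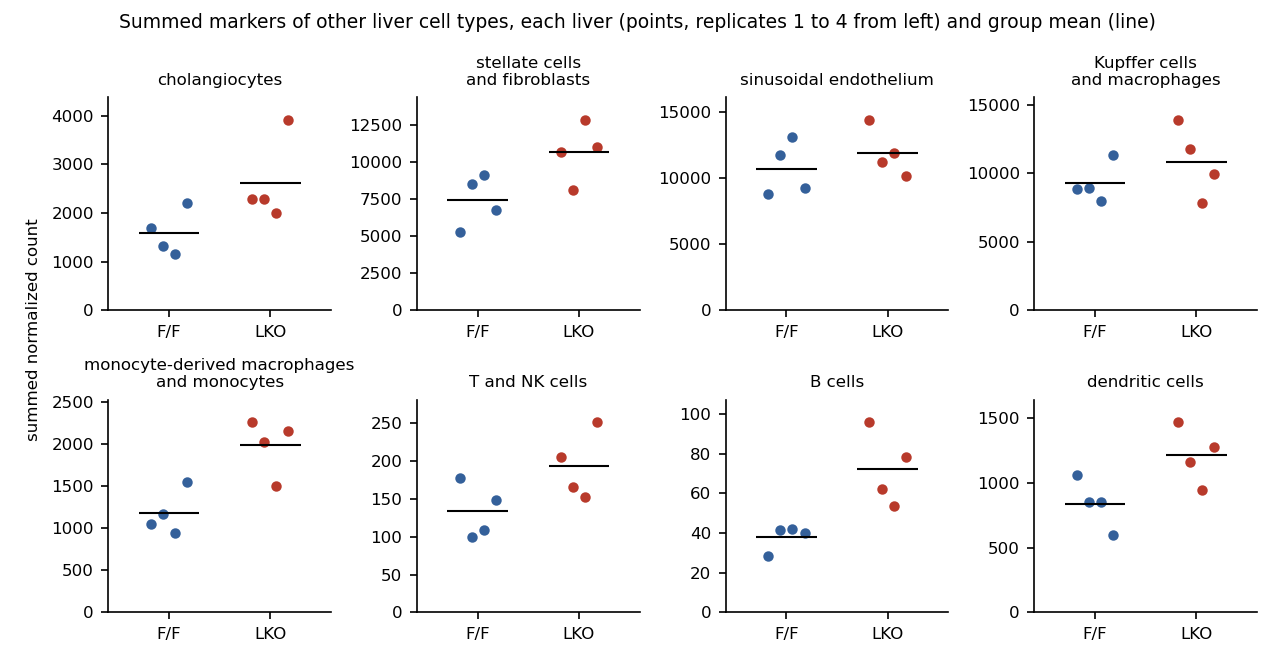
Summed normalized counts (y axis, from 0) of the marker lists of 8 liver cell types other than hepatocytes, as 1 point per liver with replicates 1 to 4 from left to right, in Brap F/F (blue) and Brap LKO livers (red), and the group mean as a line. The groups are apart for B cell markers and overlap for the others, and Brap LKO replicate 4 is highest for cholangiocyte markers.

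The highest and lowest values of the members were also counted by liver. Of the 35 tested members, 12 had their highest value in Brap LKO replicate 1 and 11 in Brap LKO replicate 4. The lowest value was in Brap F/F replicate 1 for 14 and in Brap F/F replicate 3 for 8. These counts were not made over all genes tested, so they cannot show a trait particular to the members. The median coefficient of variation of the tested members was 22.0% in Brap LKO and 21.9% in Brap F/F livers, and 20 of 35 varied more among the Brap F/F livers. Besides Lamb3, those with a wider spread among the Brap F/F livers included Itgb3 (56.6% against 21.0%), Lama1 (49.5% against 22.3%), Lama3 (36.2% against 9.97%) and Lamb2 (21.9% against 6.66%), and those with a wider spread among the Brap LKO livers included Lamc3 (64.7% against 19.9%) and Itgb2 (31.4% against 6.83%).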

How the data were processed

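Expression was measured in 8 livers, 4 per genotype. The authors extracted RNA with TRIzol and RNeasy columns, prepared NuGEN Universal Plus mRNA libraries, sequenced short single-end reads, checked them with FastQC, aligned them with STAR 2.6.0c to mm10 and normalized with DESeq2. The counting tool, annotation release and use of strand are not given in the sources used here. The deposited signal is reads per gene divided by a size factor for each liver. All values (100%) were whole multiples of the value of 1 read (tolerance 0.001 reads), so reads were recovered. A further file by the authors holds their DESeq2 comparison (mean, log2 fold change, standard error, p-values and fold) and was not used. The number of columns of other samples was 0.

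Genes with a mean of at least 5 (15352 of 24451) were tested with limma 3.58.1 (R 4.3.3, lmFit and eBayes with trend) on log2(normalized count + 1), which understates changes of low genes, with Benjamini-Hochberg adjustment and a threshold of 0.05. The study tested with DESeq2. DESeq2 1.42.0 and edgeR 4.0.16 were run on the recovered reads as alternatives, since the deposited values are not counts. The code was tested on simulated data. With 4 livers against 4, groups that do not overlap give the smallest two-sided exact permutation p possible, 0.0286 of 70 arrangements. Levels per kb used the merged exons of GENCODE M21 (mm10 coordinates), which held all 37 members. Depth was 26280884 to 33313914 reads, and a count of 0 allows up to 3 reads, counting error only.

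Members given with every liver had an unadjusted p under 0.05 or the highest level per kb in their role group. List genes named are those past the threshold, at most 5 per list, and the 2 with the highest mean normalized count, not scaled by length. Bcam, Cd209a, Ly6g, Mpo, Gp9, Gp6 and Ms4a1 were named after their values were seen. Spp1, Npnt, Col1a1, Col1a2 and Col3a1 each stand in 2 lists. Some genes that these rules name are not reported here, although counts and sums include them. The members and lists were chosen with earlier results of these data known. Replicate numbers in the titles did not pair the samples. Alternatives were a pseudocount of 0.5 or 5, no minimum or a minimum of 20, equal totals, TMM factors, the animal series as a covariate, the replicate number as a block, the count tests and leaving out each liver. Python 3.11.15 drew the figures.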

Additional observations from a re-analysis of the deposited data

Results flagged for a closer look

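In 5 of the 40 groups of 4 livers examined for the 20 members described liver by liver, 1 liver stood apart from the other 3 by Dixon's criterion, which chance meets in about 1 of 20 groups, or 2 of 40. All 5 were in Brap LKO livers, in 3 of the mice. The 20 members were measured in the same livers, so the 40 groups are not independent. The 5 therefore cannot be weighed against the 2. In Brap LKO replicate 4, Itgb8 was at 63.4 normalized counts against 34.8 to 37.4 in the other 3. The same liver had the highest sum of cholangiocyte markers, 3912 normalized counts. In Brap LKO replicate 2, Lama2 was at 75.6 against 143 to 148 and Lamb2 at 237 against 271 to 274, and this liver had the lowest sum of stellate cell and fibroblast markers of its group, 8139. In Brap LKO replicate 1, Lamb3 was at 184 against 220.5 to 227 and Lamc1 at 823 against 748 to 759. Whether the composition of these pieces of liver has a part in this was not tested.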

How the results depend on the processing

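The count of members that rose was 3 in the analysis reported, 6 with equal totals per liver, 1 with the replicate number as a block, 8 by DESeq2 and 0 to 2 when 1 liver was left out. It was 0 without Brap LKO replicates 1, 3 or 4 or Brap F/F replicates 2 or 3. The count that fell was 0, and 0 to 1 when 1 liver was left out, the 1 being Lamb3 without Brap F/F replicate 4 (-0.88, adjusted p = 0.0173 by limma). The median log2 fold change of 0.45 became 0.60 with equal totals, which shifted the median of all genes by 0.156, and 0.31 to 0.45 when 1 liver was left out, lowest without Brap LKO replicate 1. The sign turned for Itga1 with the animal series as a covariate (-0.015) and over the livers left out (-0.021 to 0.0998), for Itga5 over the livers left out (-0.055 to 0.11), and for Itgb1 with equal totals (0.14), TMM factors (0.00026), the animal series (0.046) and over the livers left out (-0.043 to 0.020). The other 17 members described liver by liver kept their direction in all 18 alternatives. Itga8 passed in 11 of the 18 alternatives, Itgax in 10 and Itgb4 in 4. With equal totals Itga6 and Itgb8 were among those that also passed, and with the animal series, Itga8 (1.93, adjusted p = 0.0155) and Lama5 (0.72, adjusted p = 0.0388) by limma. Fits without a liver have fewer samples, and the cause was not tested for the other alternatives.

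Livers with the same replicate number did not all deviate together (correlations -0.129, 0.00336, 0.196 and 0.292 for numbers 1 to 4, against highest correlations with another number of 0.156, 0.00101, 0.195 and 0.199). For numbers 2 and 3 these values were nearly equal, for number 4 the correlation with its own number was the higher and for number 1 the lower. The correlations show no clear pairing, and the replicate block rests on the number in the titles alone. Under it Itgax passed (adjusted p = 0.0483 by limma), while Itga8 was at 0.0640 and Itgb4 at 0.0861. Animal numbers put Brap LKO replicates 1 to 3 and Brap F/F replicate 1 in a lower series and the other 4 livers in a higher one, so neither series alone allows a comparison of replicated groups. Over all genes 102 rose and 16 fell in the analysis reported, 459 and 20 with equal totals, 454 and 175 by DESeq2, and between 11 and 178 rose with 1 liver left out. The depth of about 1 normalized count per read limits Itgad and Itgb6, which had at most 4 and 10 reads in a liver.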
